A study of Homo sapiens with 24 samples.

Results

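The transcripts described here are the isoforms that GENCODE 29 annotates as targets of nonsense-mediated decay (NMD) and that HCT116 cells contained at a measurable level. Of 199612 transcripts in the deposited quantifications, 14238 carry this annotation, and the 7826 with at least 10 estimated reads in at least 3 of the 24 libraries were kept as members. They belong to 4569 genes. At the threshold, 257 members had a third-highest estimated read count of at least 10 and under 11, and 263 excluded transcripts had one of at least 9 and under 10. ADD2-203 lay just inside, with a third-highest count of 10.0, and SNX15-206 just outside, with 9.996.

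HCT116 is a human colon cancer cell line. The 8 groups of 3 libraries were WT cells, TNRC6A-/- cells, TNRC6B-/- cells and TNRC6AB-/- cells without transfection, and WT or TNRC6AB-/- cells transfected with either siGL2, a control duplex, or siTNRC6C, a pool of siRNAs against TNRC6C. The knockout lines were bought, and whether each is 1 clone is not given in the sources used here. TNRC6 proteins are the scaffolds through which Argonaute proteins recruit deadenylases to microRNA targets, and the study asked what the loss of each paralog, and of all of them together, does to expression and splicing. The labels do not say that replicates were separate cultures, so p-values measure the spread between these libraries.

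NMD is a surveillance pathway of the cytoplasm. Splicing leaves an exon junction complex just upstream of each junction, and the first ribosomes to translate an mRNA normally remove all of them. Where translation ends well before the last junction, a complex is left behind, the helicase UPF1 is phosphorylated by the kinase SMG1, and the mRNA is degraded. Such early stops arise from frameshifts, from included poison exons, and from introns spliced downstream of a normal stop. Many RNA-binding proteins limit their own amounts through such isoforms. The steady-state level of an annotated NMD isoform therefore combines how often it is spliced and how quickly it decays, which RNA-seq alone cannot tell apart. Likewise, fewer cells expressing a transcript and less RNA per cell cannot be told apart in bulk samples.

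Stop codons are the feature that defines the class, so the bases around the annotated stop are shown for 12 members on which the results below turn: the most abundant members, and members whose share of their gene's transcripts differed between groups. Each window runs 5′ to 3′ along the spliced transcript, with 15 bases before the stop, the stop codon in capitals and 12 bases after it.
RPS3-218: ccgaggacagagggcTAAatccatgaagtt
B2M-212: tgggatcgagacatgTAAgcagcatcatgg
PDIA3-202: ctcctccagcctcatTGAaactctttttgt
RPS25-206: gaaataagacctctcTGAaagagactaggg
RPL37A-202: acaataagaccaagaTGAagagacgagctg
CHORDC1-203: ccctggatatatataTAGacataccagggt
DPP7-204: ggattcggaggaaccTGAgtgcctcagtca
HNRNPDL-202: aattaccagccatacTAAaggagaacattg
DCAF7-202: gagatactcagagtgTAGtgttggtggcgc
KIF21A-206: aagataggcagcatgTAAgtttggcccagc
SNRNP70-202: cagctggcttgcagcTGAtgcttacgctcc
TNRC6A-207: cagtcagtgaataagTAGcagatcctggac

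On GRCh38 the stop of RPS3-218 lies at chr11:75404110-75404112 on the plus strand, in exon 4, within a coding region of other RPS3 transcripts, with 2 junctions after it. RPS25-206 ends at chr11:119017937-119017939 on the minus strand, in an exon 2 that no coding RPS25 transcript covers at the stop, and 3 junctions follow over 295 bases. RPL37A-202 ends at chr2:216499956-216499958 (plus strand, exon 4), inside coding sequence, with a single later junction 73 bases away. The stop of PDIA3-202, at chr15:43751630-43751632 (plus strand, exon 2), is outside the exons of coding transcripts and precedes 12 junctions. KIF21A-206 (chr12:39322664-39322666, minus strand, exon 11), SNRNP70-202 (chr19:49102137-49102139, plus strand, exon 8) and TNRC6A-207 (chr16:24778352-24778354, plus strand, exon 2) likewise stop outside the exons of the coding transcripts of their genes. A different arrangement was found in DCAF7-202 (chr17:63589170-63589172, plus strand, exon 7), HNRNPDL-202 (chr4:82426059-82426061, minus strand, exon 7) and B2M-212 (chr15:44716340-44716342, plus strand, exon 3), whose stops are also those of coding transcripts and are followed by a spliced intron. CHORDC1-203 (chr11:90206748-90206750, minus strand, exon 7) stops in an exon that is untranslated in coding transcripts, and DPP7-204 (chr9:137110935-137110937, minus strand, exon 3) stops inside coding sequence.

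Across all members the median transcript was 1278 bases long, with 7 exons, 3 junctions after the stop and 351 bases from the stop to the last junction. Of 7730 members with a stop in the annotation, 7664 (99.1%) ended translation more than 50 bases before the last junction, against 372 of 37527 protein-coding transcripts that passed the same read minimum (0.991%). This separation follows from how the annotation assigns the class. The stop fell inside a coding region of another transcript in 3592 members (46.4%), outside every exon of coding transcripts in 2865 (37.0%), and at the stop of a coding transcript in 788 (10.2%). TGA closed 57.1% of members, TAA 23.3% and TAG 19.6%, beside 50.0%, 28.4% and 21.5% of the protein-coding transcripts. Members shared most of their sequence with other isoforms: a median of 3.88% of a member's 31-base words occurred in no other transcript, and 1491 of 7738 members had no such word at all. The estimated reads of a member therefore depend strongly on how Salmon divided shared reads among isoforms.

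Library depth ran from 28144290 to 42689317 estimated reads (median 34465676), of which 726438 to 1067269 were assigned to members. Between 5158 and 6264 members had 10 or more reads in a given library, and 802 to 1271 had none. The targeted genes checked the labels only in part, since the lines still produce RNA from the edited genes. TNRC6A was at 102 to 128 CPM in WT and 66.4 to 74.4 CPM in TNRC6A-/- cells, and at 115 to 122.6 CPM in WT siGL2 and 82.7 to 87.8 CPM in TNRC6AB-/- siTNRC6C, although in TPM the latter libraries (30.4 to 39.1 TPM) lay above WT siGL2 (18.7 to 27.3 TPM). TNRC6B was at 200 to 207 CPM in WT and 101 to 147 CPM in TNRC6B-/- cells, and at 191 to 217 CPM in WT siGL2 and 81.4 to 86.3 CPM in TNRC6AB-/- siTNRC6C. TNRC6C was at 46.6 to 51.1 CPM in WT siGL2, 18.1 to 19.2 CPM in WT siTNRC6C, 120 to 121 CPM in TNRC6AB-/- siGL2 and 19.9 to 22.5 CPM in TNRC6AB-/- siTNRC6C. The 6 colon epithelial markers summed to 972 to 2228 CPM in every library, with KRT8 the highest at 492 to 1256 CPM. The sum was 1518 to 1616 CPM in WT and 1702 to 1854 CPM in TNRC6AB-/-, but single markers went the other way. EPCAM was at 126 to 132 TPM in WT and 36.2 to 51.9 TPM in TNRC6AB-/-. CDH1 was at 18.3 to 37.0 TPM in WT and 2.61 to 7.42 TPM in TNRC6AB-/-. The 13 markers of blood, endothelium and fibroblasts summed to 16.8 to 93.3 CPM, with COL1A1 the highest at 13.7 to 49.4 CPM. Their sum was 17.8 to 25.9 CPM in WT siGL2 and 61.1 to 68.0 CPM in TNRC6AB-/- siTNRC6C, while LUM and CD3E stayed below 0.1 CPM. The part of all these markers in the results was not tested. Replicate 1 of TNRC6B-/-, replicate 1 of TNRC6AB-/-, replicate 3 of TNRC6AB-/- siGL2 and replicate 3 of WT siGL2 held more retained-intron reads than the other libraries of their groups, at 5.74%, 5.15%, 4.50% and 4.33% of reads.

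As a class, NMD transcripts took a nearly constant part of each library. They held 2.24% to 2.78% of all reads (median 2.38%). The WT libraries gave 2.53%, 2.69% and 2.47% of reads (2.56% ± 0.116, SD, n = 3), and the TNRC6A-/- libraries 2.78%, 2.74% and 2.65% (2.72% ± 0.0627). TNRC6B-/- libraries ranged from 2.25% to 2.70% (2.43% ± 0.239) and TNRC6AB-/- libraries from 2.30% to 2.53% (2.39% ± 0.121). In each of these comparisons with WT the knockout and control libraries overlapped. The transfected libraries were closer together: 2.31% ± 0.0797 in WT siGL2, 2.28% ± 0.0332 in WT siTNRC6C, 2.36% ± 0.0701 in TNRC6AB-/- siGL2 and 2.39% ± 0.0124 in TNRC6AB-/- siTNRC6C. Here too the libraries of the groups compared overlapped, as the plot of read shares by library shows. With 3 libraries against 3 an exact permutation test cannot give a p below 0.1, so these sums are described by their values alone.

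**Figure D1:**
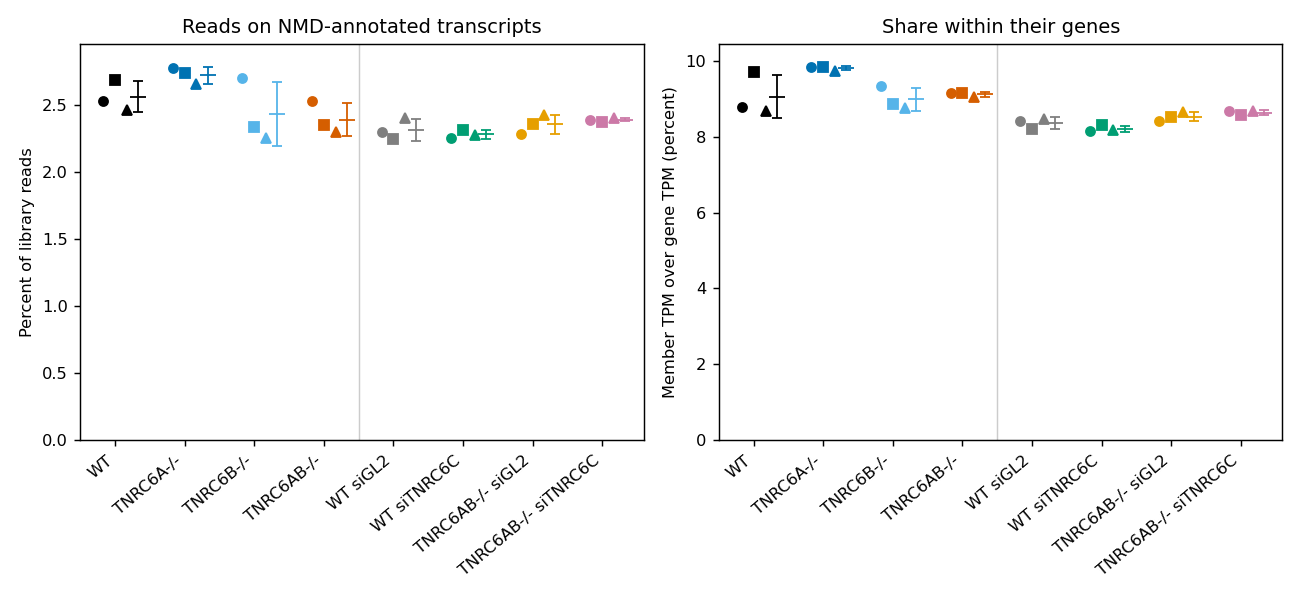
Percentage of each library's reads assigned to NMD transcripts, and percentage of the TPM of their genes that these transcripts make up, for the 24 libraries by group. Points are libraries (circle, square and triangle for replicates 1, 2 and 3), bars are mean ± SD, and the grey line separates untransfected from transfected groups. All read shares lie between 2.24% and 2.78%, and the transfected libraries lie at 8.15% to 8.67% within genes, below all untransfected ones.

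Within their own genes the members accounted for 8.15% to 9.84% of transcripts, as the sum of member TPM over the sum of the TPM of their 4569 genes. WT libraries stood at 8.79%, 9.70% and 8.68% and TNRC6A-/- libraries at 9.84%, 9.83% and 9.74%. The TNRC6A-/- mean was 0.749 percentage points higher (9.80% ± 0.0536 against 9.06% ± 0.562) and the groups did not overlap, with WT replicate 2 the nearest of the WT libraries to the knockout values. TNRC6B-/- (8.99% ± 0.306) and TNRC6AB-/- (9.12% ± 0.0674) overlapped WT. Among transfected cells, WT siGL2 libraries gave 8.42%, 8.19% and 8.47%, and TNRC6AB-/- siTNRC6C libraries 8.67%, 8.56% and 8.67%, a difference of 0.272 points without overlap. WT siTNRC6C (8.21% ± 0.0768) and TNRC6AB-/- siGL2 (8.53% ± 0.122) overlapped WT siGL2. All 12 transfected libraries (8.15% to 8.67%) lay below all 12 untransfected ones (8.68% to 9.84%), a gap that cannot be told apart from any other difference between the sets of libraries. The summed shares rest on abundant members: without the 10 members of highest mean TPM, the difference of TNRC6AB-/- siTNRC6C from WT siGL2 was 0.787 points, and among members of transcript support level 1 or 2 it was -0.0827 points.

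In 6 of the 8 groups the library richest in retained introns also had the highest NMD share of reads, and these include the 4 groups with a library that stood above its replicates. In TNRC6B-/- cells, replicate 1 held 2.70% NMD reads and the other libraries 2.34% and 2.25%. TNRC6AB-/- replicate 1 held 2.53% beside 2.35% and 2.30%, TNRC6AB-/- siGL2 replicate 3 held 2.42% beside 2.28% and 2.36%, and WT siGL2 replicate 3 held 2.40% beside 2.30% and 2.24%. WT replicate 2 and WT siTNRC6C replicate 2 were likewise highest in both measures. In the other groups this was not so: TNRC6A-/- replicate 2 held the most retained-intron reads (4.68%) and 2.74% NMD reads beside 2.78% in replicate 1, and TNRC6AB-/- siTNRC6C replicate 2 held the most retained-intron reads (4.55%) and the fewest NMD reads (2.38%) of their groups. The part of retained introns in the NMD shares was not tested. Without these 4 libraries the TNRC6AB-/- siTNRC6C mean exceeded that of WT siGL2 by 0.120 points of library reads, and the difference in summed share within genes was 0.325 points.

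**Figure D2:**
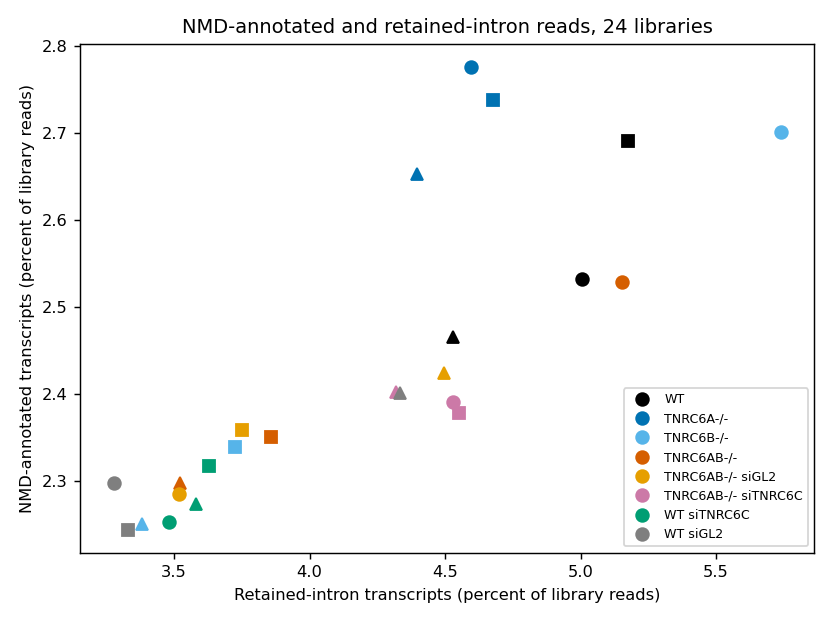
Percentage of reads in NMD transcripts (vertical axis) against percentage of reads in retained-intron transcripts (horizontal axis) for the 24 libraries, coloured by group, with a marker shape for each replicate. TNRC6B-/- replicate 1 lies farthest right, at 5.74% retained-intron and 2.70% NMD reads.

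Members whose stop lies outside the exons of coding transcripts, the place of poison exons and intronic stops, and members whose stop lies inside coding sequence did not move together. For stops outside coding exons, WT siGL2 libraries held 0.670%, 0.663% and 0.768% of reads and TNRC6AB-/- siTNRC6C libraries 0.859%, 0.855% and 0.843%. TNRC6AB-/- siGL2 libraries, at 0.746%, 0.776% and 0.838%, and WT siTNRC6C libraries, at 0.674%, 0.707% and 0.693%, both overlapped WT siGL2. For stops inside coding sequence, WT siGL2 libraries held 1.17%, 1.13% and 1.16% of reads and TNRC6AB-/- siTNRC6C libraries 1.07%, 1.06% and 1.09%. TNRC6AB-/- siGL2 libraries, at 1.08%, 1.11% and 1.12%, also lay below WT siGL2 without overlap. WT siTNRC6C libraries, at 1.13%, 1.15% and 1.12%, overlapped WT siGL2. The TNRC6AB-/- siTNRC6C libraries were thus all above WT siGL2 for the one kind of stop and all below it for the other, with no overlap in either. Retained-intron reads also differed, at 4.53%, 4.55% and 4.32% in TNRC6AB-/- siTNRC6C beside 3.28%, 3.33% and 4.33% in WT siGL2. They overlapped only through WT siGL2 replicate 3, and their part in this contrast was not tested. TNRC6A-/- cells showed another arrangement: their inside-coding share of 1.42%, 1.37% and 1.38% was above the 1.20%, 1.28% and 1.21% of WT without overlap, while their outside-exon share of 0.868%, 0.886% and 0.822% overlapped that of WT (0.831%, 0.907% and 0.783%). In every group except TNRC6AB-/- siTNRC6C, the outside-exon share was also highest in the library richest in retained introns. For instance, it was 0.911% in TNRC6B-/- replicate 1 beside 0.712% and 0.688%.

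**Figure D3:**
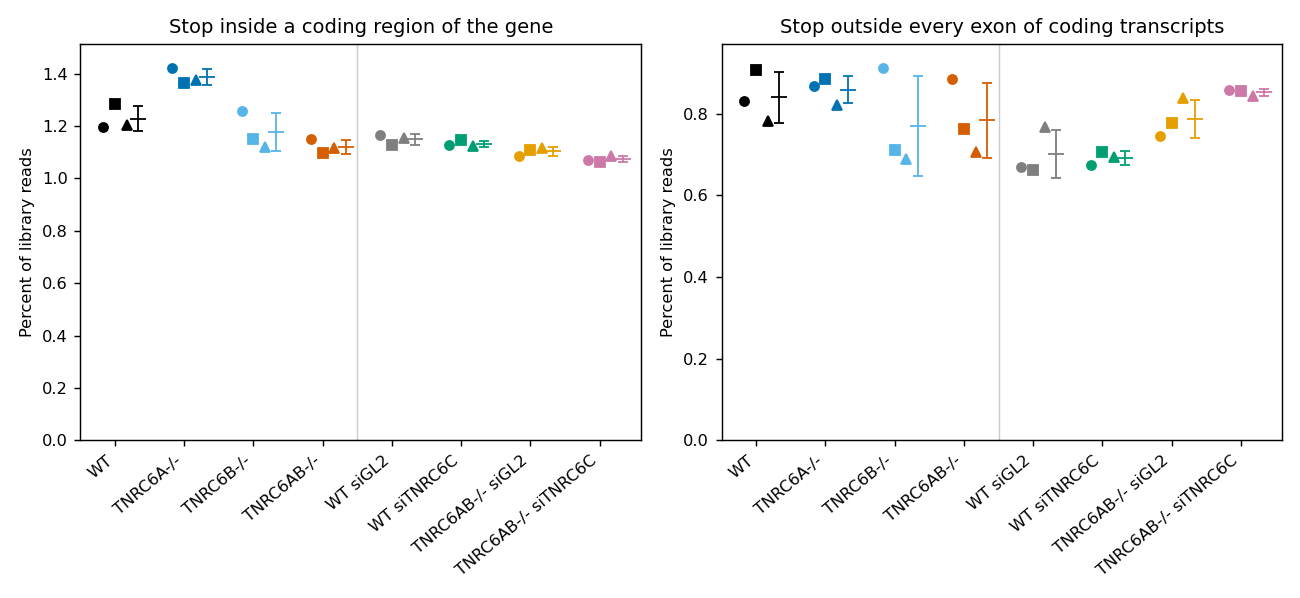
Percentage of library reads in NMD transcripts whose stop lies inside a coding region and in those whose stop lies outside the exons of coding transcripts, by group. Points are libraries (marker shape for the replicate) and bars are mean ± SD; the TNRC6AB-/- siTNRC6C libraries reach 0.843% to 0.859% for stops outside coding exons, above the 0.663% to 0.768% of WT siGL2.

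Most members were minor isoforms. The median member made up 4.17% of its gene and had a mean level of 0.581 TPM, with 5296 members below 1 TPM and 174 above 10 TPM. A mean share of under 1% was found for 1119 members, 1% to 5% for 3270, 5% to 20% for 2554, 20% to 50% for 612 and over 50% for 271. Of these 271 members, 118 belong to genes without any coding transcript, and 51 to genes of 5 TPM or more. Some 536 members were the most abundant isoform of their gene. The spread between replicates was wide for such transcripts: the median SD of a member's share within a group was 1.03 to 1.56 percentage points, and 1295 to 1814 members were at 0 in some but not all libraries of a group.

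The 10 members of highest mean TPM held 9.77% of all member reads, and the top 100 held 32.1%. RPS3-218, from the gene of a small-subunit ribosomal protein, led with a mean of 439 TPM and 38.6% of RPS3. FTH1-208 (ferritin heavy chain, 258 TPM, 22.5% of its gene), B2M-212 (the light chain of MHC class I, 178 TPM, 42.5%), HNRNPA1-205 (an RNA-binding protein of splicing, 176 TPM, 21.6%) and RPS3-210 (162 TPM, 14.3%) followed. COX6C-207, from a cytochrome c oxidase subunit gene, made up 61.0% of its gene at 141 TPM. PDIA3-202, from the gene of a disulfide isomerase of the endoplasmic reticulum, was the main isoform of its gene at 85.4% and 117 TPM, between 82.6% and 88.5% in all 24 libraries. RACK1-224, RACK1-210 (a scaffold on the small ribosomal subunit) and RPL37A-202 (a large-subunit ribosomal protein) completed the list at 116, 114 and 111 TPM. Each of the 10 has under 31 unique 31-base words except COX6C-207, PDIA3-202 and RPL37A-202, with 93, 205 and 57, and RACK1-210 has 0.

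For each member, 2 questions were put to every comparison with edgeR's quasi-likelihood test: whether its reads changed relative to those of its gene (its share), and whether its reads changed relative to the library (its level). A call needed a Benjamini-Hochberg adjusted p under 0.05 over all transcripts tested and a log2 difference beyond 0.6. Share was tested in 85410 transcripts, 7565 of them members, and level in 97333 transcripts, all 7826 members among them. In all, 329 members in 313 genes were called for share in at least 1 comparison, and 987 for level. In no comparison of shares did the members exceed the transcripts as a whole by much, as the plot of calls by comparison shows.

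**Figure D4:**
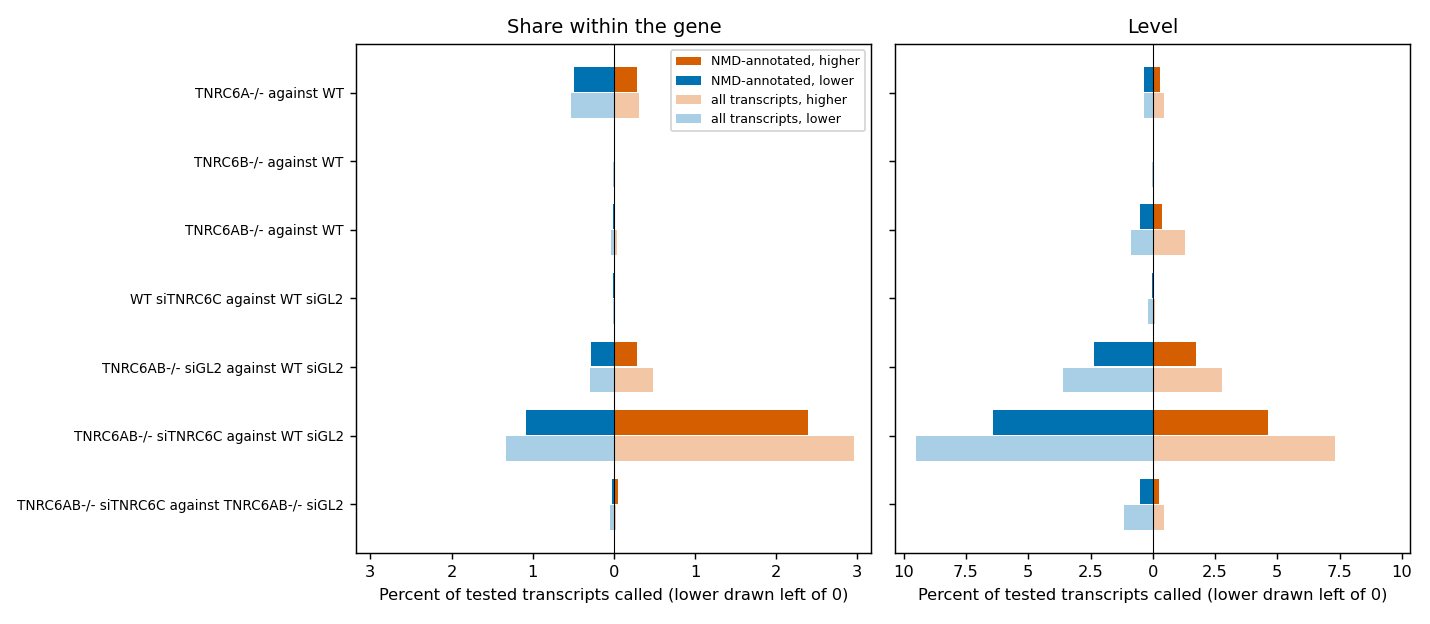
Members called higher or lower in share within the gene, as a percentage of the 7565 members tested, beside the same percentage over all 85410 transcripts tested, in the 7 comparisons. TNRC6AB-/- siTNRC6C against WT siGL2 has the most member calls, 2.39% higher and 1.08% lower, beside 2.96% and 1.33% of all transcripts.

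In TNRC6A-/- cells a number of genes differed from WT in their make-up of isoforms, RPS25, RPL37A and RPS3 among them. The TNRC6A-/- libraries also differed in kind. Fragment length estimated from Salmon's effective lengths was 165 to 172 bases, beside 182 to 190 in WT. Members without a read numbered 1183 to 1271, beside 951 to 981 in WT. The part of these differences in the isoform shares was not tested. Of the members, 22 had a higher share and 37 a lower share than in WT, 0.291% and 0.489% of those tested, while 0.844% of all transcripts were called (0.313% higher and 0.532% lower). No gene of the 22 was itself called, and for 2 of the 37 the gene was called lower, where 4.09% of all genes were called in either direction. Library shares did not overlap for 749 members that were higher and 799 that were lower, against 10.1% and 12.3% of all transcripts. In level, 22 members were higher and 27 lower, where 0.782% of all transcripts were called (0.435% higher and 0.347% lower). Over the members the median log2 difference in share was -0.06, and over all transcripts -0.05. A different fit moved these counts: 202 members were called when all 24 libraries were fitted together and 263 by DESeq2, which held 55 and 57 of the 59. Fewer shares were called without WT replicate 1 (32), WT replicate 3 (34) or TNRC6A-/- replicate 1 (37), and the 49 level calls went to 20 to 36 without any single library, of which the 36 came without WT replicate 2.

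RPS25-206 gained most. RPS25, a small-subunit ribosomal protein, had 28.8%, 34.3% and 31.8% of its transcripts in this isoform in TNRC6A-/- libraries and 3.66%, 5.01% and 4.05% in WT libraries. Every knockout library was several times above every WT library, and the other 6 groups stayed at 2.99% to 5.65%. The share rose by a log2 of 3.15 (SE 0.22, adjusted p = 0.000163), and the coding isoform RPS25-202 lost 26.9 points. The gene as a whole was at 507 to 593 TPM in TNRC6A-/- and 677 to 709 TPM in WT. RPL37A-202 stood at 17.7%, 18.6% and 18.3% of RPL37A in TNRC6A-/- and at 0.887%, 1.55% and 0.962% in WT, again without overlap. Its share rose by a log2 of 4.19 (SE 0.31, adjusted p = 0.000194), while the coding isoform RPL37A-206 lost 12.6 points. RPL37A in total was also lower in TPM, at 1461 to 1645 beside 2113 to 2587 in WT, without overlap. Untransfected TNRC6AB-/- libraries, which also carry the TNRC6A knockout, held 1.13% to 1.90% of RPL37A in this isoform and overlapped WT. The 12 transfected libraries, whatever their genotype, held 5.51% to 6.75% of RPL37A in this isoform. Both calls held under all 13 alternatives run for them.

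CHORDC1-203 reached 41.3%, 44.0% and 40.6% of the transcripts of CHORDC1, an HSP90 cochaperone, against 19.6%, 22.3% and 19.96% in WT. Its share rose by a log2 of 1.16 (SE 0.12, adjusted p = 0.0017). MRPS7-206, from a mitochondrial ribosomal protein gene, was at 28.4%, 27.2% and 27.6% in TNRC6A-/- and 7.10%, 9.23% and 10.9% in WT, and rose by a log2 of 1.64 (SE 0.21, adjusted p = 0.00517). The knockout libraries of both isoforms lay above every library of the other groups. RPS3-216 rose from 7.04%, 6.37% and 6.62% of RPS3 in WT to 17.8%, 15.6% and 17.2% in TNRC6A-/- (log2 1.35, SE 0.16, adjusted p = 0.00283). RPS3-218, also an NMD isoform, was meanwhile at 32.2%, 35.3% and 32.7% beside 42.5%, 40.1% and 40.6%, a difference of -7.66 points at a log2 of -0.28 that is under the limit set for a call. B2M showed the same kind of exchange between annotated NMD isoforms: B2M-212 was at 30.6%, 26.3% and 28.2% in TNRC6A-/- and 47.6%, 46.2% and 45.7% in WT (log2 -0.54, adjusted p = 0.000328, under the limit for a call), and B2M-203 gained 25.6 points. In untransfected TNRC6AB-/- cells B2M-212 was at 46.7% to 47.7%, which overlapped WT.

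Among members with a lower share in TNRC6A-/-, DPP7-204, of a lysosomal dipeptidyl peptidase gene, was at 12.5%, 16.7% and 15.1% beside 33.02%, 30.5% and 30.9% in WT. The share fell by 1.20 on the log2 scale (SE 0.19, adjusted p = 0.0159). TRAF3IP1-203, from a gene of intraflagellar transport, was at 15.5%, 15.4% and 12.8% beside 33.2%, 30.8% and 29.5%, and fell by 1.32 (SE 0.22, adjusted p = 0.0182) while the coding TRAF3IP1-202 gained 17.04 points. The knockout libraries of DPP7-204 and TRAF3IP1-203 did not overlap those of WT. PSPH-210, from the gene of the last enzyme of serine synthesis, was at 18.99%, 26.03% and 28.04% beside 40.5%, 36.3% and 49.3% and fell by 0.74 (SE 0.14, adjusted p = 0.0408), a call kept under 4 of 13 alternatives. RACK1-224, 1 of the 10 most abundant members, fell from 15.4%, 17.2% and 15.8% to 10.5%, 11.3% and 8.63% (log2 -0.66, SE 0.11, adjusted p = 0.0188, kept under 7 of 13). TNRC6AB-/- cells also carry the TNRC6A knockout. There DPP7-204 was at 29.9% to 34.4%, TRAF3IP1-203 at 20.6% to 29.9% and PSPH-210 at 43.3% to 48.6%, all of which overlapped WT. RACK1-224 was at 13.6% to 14.0% in TNRC6AB-/-, between WT and TNRC6A-/-.

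Loss of TNRC6B alone left almost no called difference. PABPC1-212 was the member with a higher share, and no member had a lower one, where 0.0222% of all transcripts were called (0.00937% higher and 0.0129% lower). PABPC1, the cytoplasmic poly(A)-binding protein, had 3.22%, 3.48% and 4.46% of its transcripts in this isoform in TNRC6B-/- libraries and 0.766%, 1.06% and 1.07% in WT. The share rose by a log2 of 1.89 (SE 0.22, adjusted p = 0.0417), a call kept under 5 of 14 alternatives. In TNRC6A-/- the same isoform was at 0.286%, 0.386% and 0.396%, below WT (log2 -1.29, SE 0.22, adjusted p = 0.0207), and the WT libraries are common to both comparisons. Shares did not overlap for 285 members that were higher and 374 that were lower in TNRC6B-/-, against 3.62% and 4.8% of all transcripts. For level, edgeR called 0 members, where it called 0.039% of all transcripts (0.0154% higher and 0.0236% lower); 325 members had an unadjusted p under 0.05, and DESeq2 called 31. Without TNRC6B-/- replicate 2 or 3 no share was called, and without TNRC6B-/- replicate 1 or WT replicate 2 or 3 there were 2 share calls.

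In TNRC6AB-/- cells without transfection few shares were called against WT. Of the members, 1 was higher and 1 lower, beside 0.0679% of all transcripts (0.0363% higher and 0.0316% lower). In simulated data for this comparison, the share test called 0 of 100 members changed by a log2 of 1 and 11 of 100 changed by 3. Few calls therefore do not show that few shares differed. TRAPPC1-203, from a gene of vesicle tethering, was listed at 0 in all WT libraries and made up 2.86%, 4.59% and 3.36% of TRAPPC1 in TNRC6AB-/-, from 25.1 to 58.6 reads. Against a floor of 3 reads per library this share was at least 9.61-fold higher, and the call was kept under 3 of 14 alternatives. CD99L2-201, named after its values were seen, fell from 25.9%, 22.3% and 23.1% of CD99L2 in WT to 7.76%, 6.90% and 5.66% (log2 -2.01, SE 0.24, adjusted p = 0.0195). Shares did not overlap for 330 members that were higher and 595 that were lower, against 6.17% and 7.59% of all transcripts. In level, 28 members were higher and 41 lower, beside 2.14% of all transcripts (1.28% higher and 0.861% lower). These 69 level calls were 18 without WT replicate 1, 28 without WT replicate 2, 19 without TNRC6AB-/- replicate 2 and 36 without TNRC6AB-/- replicate 3.

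siTNRC6C in WT cells likewise moved 1 member up and 1 down in share, where 0.0187% of all transcripts were called (0.00937% in each direction). HNRNPDL-202, whose stop is that of a coding transcript and is followed by a spliced intron, was at 8.20%, 8.48% and 8.36% of HNRNPDL in WT siTNRC6C and at 12.7%, 11.9% and 14.3% in WT siGL2. HNRNPDL encodes an RNA-binding protein of splicing, and the share of this isoform fell by 0.60 on the log2 scale (SE 0.06, adjusted p = 0.00969), at the limit for a call and kept under 5 of 14 alternatives. PHLDB1-214 was listed at 0 in all WT siGL2 libraries and made up 5.23%, 7.80% and 7.30% of PHLDB1 in WT siTNRC6C, at least 75.8-fold higher against the floor (adjusted p = 0.000474). It has no unique 31-base word, and the untransfected WT libraries held 2.34% to 4.91%, so the WT siGL2 group is the only group in which all libraries lacked it. Shares did not overlap for 349 members that were higher and 424 that were lower, against 5.42% and 5.25% of all transcripts. Of the 8 members called for level, beside 0.241% of all transcripts (0.0688% higher and 0.173% lower), PHLDB1-214, UMPS-206, BRPF3-206 and RPF2-204 were higher and ERRFI1-205, ADAM17-204, NR4A2-206 and LRRK1-205 lower; apart from PHLDB1-214 they were named after their values were seen. Without WT siGL2 replicate 3 there were 20 level calls, and 3 or 4 without WT siGL2 replicate 2 or WT siTNRC6C replicate 1 or 2.

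Under siGL2, TNRC6AB-/- cells differed from WT in 43 member shares, 22 higher and 21 lower (0.291% and 0.278% of those tested), where 0.782% of all transcripts were called (0.482% higher and 0.3% lower). Shares did not overlap for 647 members that were higher and 501 that were lower, against 9.4% and 7.11% of all transcripts. In level 136 members were higher and 184 lower, beside 6.36% of all transcripts (2.76% higher and 3.6% lower). Of the 22 with a higher share 16 were also higher in level, and of the 21 with a lower share 17 were lower in level. The number of share calls depended on 1 control library: it was 89 without WT siGL2 replicate 3 and 25 to 33 without any other single library. The 320 level calls were 205 without WT siGL2 replicate 2.

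Adding siTNRC6C within TNRC6AB-/- cells gave 6 called member shares, described below. The most were called in TNRC6AB-/- siTNRC6C against WT siGL2, groups that differ in both genotype and duplex. Against WT siGL2, 181 members in 177 genes had a higher share and 82 in 78 genes a lower one (2.39% and 1.08%), where 4.29% of all transcripts were called (2.96% higher and 1.33% lower). Shares did not overlap for 1064 members that were higher and 652 that were lower (14.1% and 8.62%), against 17.2% and 10.6% of all transcripts. The median log2 difference in share was 0.14 over members and 0.11 over all transcripts tested. In level 362 members were higher and 501 lower, beside 16.8% of all transcripts (7.31% higher and 9.5% lower). The preponderance of higher shares was thus found in transcripts generally and was no larger in members.

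The 181 members with a higher share gained a median of 2.99 percentage points, and 15 gained more than 10 points. Of them 92 were also higher in level and 3 were lower, and their genes were called higher for 9 members and lower for 39. Their stops lay outside coding exons for 88 and inside coding sequence for 65. Among all members tested with stops outside coding exons, 3.15% were called higher and 0.896% lower, and the median log2 difference in share was 0.26; with stops inside coding sequence, 1.83% and 1.04% were called, and the median was 0.06. The 82 members with a lower share lost a median of 6.58 points, and 64 of them were lower in level. These counts moved more than 1.5 times with single libraries: 483 members were called without WT siGL2 replicate 3, 93 and 96 without WT siGL2 replicates 1 and 2, 119, 113 and 145 without each TNRC6AB-/- siTNRC6C replicate, and 524 without the 4 libraries high in retained introns. Of the 263 members, 226 were among the 483 and 222 among the 524.

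DCAF7-202 showed a graded pattern. DCAF7 encodes a WD-repeat protein, and this isoform was at 43.6%, 43.1% and 42.7% in WT siGL2, 37.7%, 36.8% and 38.3% in WT siTNRC6C, 32.9%, 31.6% and 29.6% in TNRC6AB-/- siGL2, and 24.1%, 25.2% and 24.6% in TNRC6AB-/- siTNRC6C. No library of any of these groups overlapped another group. Against WT siGL2 its share fell by 0.67 on the log2 scale in TNRC6AB-/- siGL2 (SE 0.05, adjusted p = 8.95e-05) and by 1.12 in TNRC6AB-/- siTNRC6C (SE 0.05, adjusted p = 1.73e-06), and the coding DCAF7-205 gained 11.8 and 18.1 points. Both calls held under all 14 alternatives. Among the untransfected groups the isoform was at 34.2% to 42.9% in WT and 35.3% to 36.4% in TNRC6AB-/-, which overlapped.

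KIF21A-206, from a kinesin gene and ending in a long exon that coding transcripts lack, was higher in both transfected TNRC6AB-/- groups. It was at 2.39%, 2.31% and 1.92% of KIF21A in WT siGL2, 4.11%, 4.15% and 4.13% in TNRC6AB-/- siGL2 and 6.85%, 6.89% and 7.18% in TNRC6AB-/- siTNRC6C. WT siTNRC6C libraries, at 2.25%, 2.28% and 2.504%, overlapped WT siGL2. The transfected groups otherwise did not overlap, and the log2 differences from WT siGL2 were 0.96 (SE 0.13, adjusted p = 0.00644) and 1.84 (SE 0.13, adjusted p = 5.74e-05). The coding isoform KIF21A-204 lost 7.58 and 15.3 points in turn. Without transfection KIF21A-206 was at 2.64%, 2.93% and 1.99% in WT and 6.09%, 4.17% and 4.03% in TNRC6AB-/-. It was at 4.03%, 4.11% and 3.56% in TNRC6B-/-, and TNRC6A-/- overlapped WT. None of these differences was called. Of its 2975 words of 31 bases, 1367 were unique to this isoform, which makes it among the better resolved of the named members. SNRNP70-202, an isoform of U1-70K, the protein of the U1 snRNP, was at 2.97%, 2.76% and 3.74% in WT siGL2, 5.37%, 5.75% and 5.96% in TNRC6AB-/- siGL2 and 7.56%, 8.39% and 7.14% in TNRC6AB-/- siTNRC6C. It rose by log2 0.81 (SE 0.12, adjusted p = 0.0121) and 1.23 (SE 0.12, adjusted p = 0.000519), while in the untransfected groups it varied from 6.97% to 12.7% with overlap between groups.

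**Figure D5:**
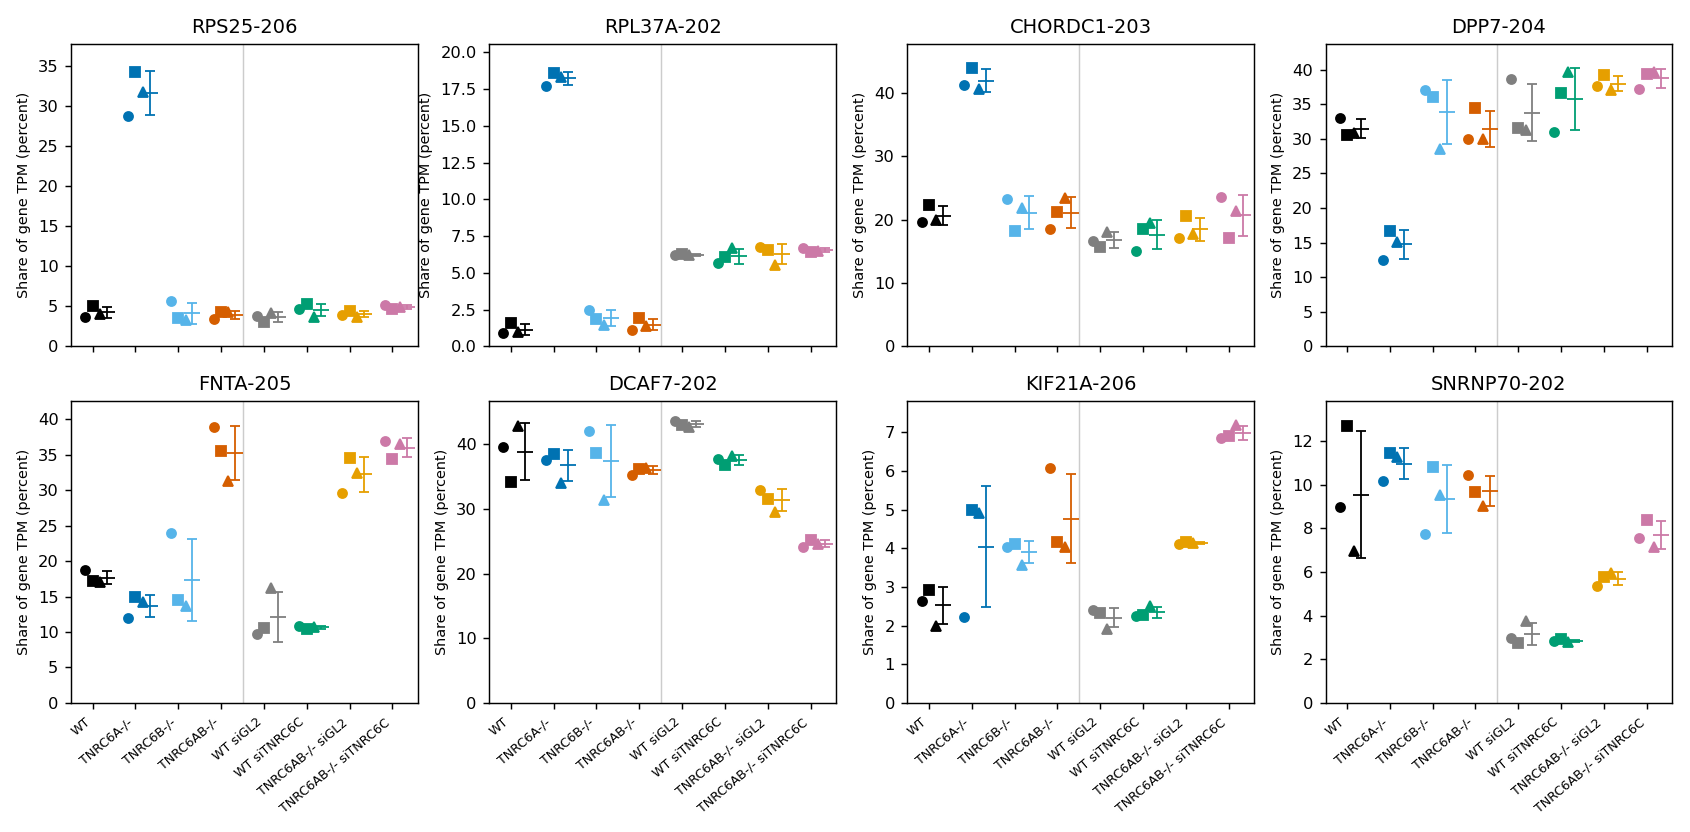
Share of the gene's TPM made up by selected NMD transcripts in each library, by group, on a percentage scale. Points are libraries (marker shape for the replicate) and bars are mean ± SD; RPS25-206 stands apart in TNRC6A-/- at 28.8% to 34.3%, and DCAF7-202 runs from 42.7% to 43.6% in WT siGL2 down to 24.1% to 25.2% in TNRC6AB-/- siTNRC6C.

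FNTA-205, from the gene of the alpha subunit of farnesyltransferase, was at 9.70%, 10.5% and 16.2% in WT siGL2, 29.6%, 34.6% and 32.5% in TNRC6AB-/- siGL2 and 37.0%, 34.5% and 36.4% in TNRC6AB-/- siTNRC6C. Its share rose by log2 1.10 (SE 0.11, adjusted p = 0.00102) and 1.19 (SE 0.11, adjusted p = 0.000288), and the coding FNTA-201 lost 33.5 and 41.3 points. Untransfected TNRC6AB-/- libraries, at 38.9%, 35.5% and 31.3%, also lay above WT, at 18.7%, 17.2% and 17.1%, but that difference was not called (adjusted p = 0.376). CHEK2-214, from the gene of a DNA-damage checkpoint kinase, was at 7.83%, 9.03% and 8.50% in WT siGL2, 27.0%, 22.1% and 23.4% in TNRC6AB-/- siGL2 and 22.4%, 19.7% and 25.2% in TNRC6AB-/- siTNRC6C. It rose by log2 1.65 (SE 0.27, adjusted p = 0.0187) and 1.61 (SE 0.27, adjusted p = 0.0089), and untransfected libraries were at 9.94% to 14.1% in WT and 19.3% to 25.6% in TNRC6AB-/-. For FNTA-205 and CHEK2-214 the TNRC6AB-/- groups overlapped each other and stood apart from WT siGL2, which both comparisons share.

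OCEL1-209 was at 11.6%, 17.2% and 21.2% in WT siGL2, 42.9%, 40.8% and 40.9% in TNRC6AB-/- siGL2 and 33.3%, 34.0% and 33.4% in TNRC6AB-/- siTNRC6C. It rose by log2 1.45 (SE 0.24, adjusted p = 0.0187) and 1.03 (SE 0.24, adjusted p = 0.035), calls kept under 5 of 14 alternatives each, and it has no unique 31-base word. Untransfected libraries were at 38.9%, 41.9% and 19.3% in WT and 40.2%, 20.2% and 21.4% in TNRC6AB-/-, so no such difference was seen there. HIST1H2AC-201, a spliced and polyadenylated isoform of a replication-dependent histone gene, reached 19.96%, 37.3% and 39.0% in TNRC6AB-/- siTNRC6C beside 11.5%, 8.79% and 5.66% in WT siGL2 (log2 1.89, SE 0.47, adjusted p = 0.0432, kept under 3 of 14). Its untransfected WT libraries ran from 0% to 45.7%, so its spread between replicates was far wider than that of the other named members.

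Lower shares in both TNRC6AB-/- groups were found for HNRNPDL-202, at 5.78%, 5.64% and 5.55% under siGL2 and 5.86%, 5.44% and 5.25% under siTNRC6C beside 12.7%, 11.9% and 14.3% in WT siGL2. The log2 differences were -1.16 (SE 0.06, adjusted p = 1.33e-05) and -1.24 (SE 0.06, adjusted p = 3.63e-06). The lower share in WT siTNRC6C lay between these groups and WT siGL2 without overlap, whereas the untransfected libraries ranged from 4.89% to 42.0%. MRPL30-203, from a mitochondrial ribosomal protein gene, went from 35.5%, 40.7% and 38.1% in WT siGL2 to 24.7%, 27.0% and 25.9% in TNRC6AB-/- siGL2 and 23.7%, 19.4% and 18.3% in TNRC6AB-/- siTNRC6C, with log2 differences of -0.66 (SE 0.12, adjusted p = 0.0284, kept under 4 of 14 alternatives) and -1.01 (SE 0.12, adjusted p = 0.00151). Without transfection its mean was the higher in TNRC6AB-/-, at 34.0%, 37.9% and 33.9% beside 26.5%, 27.6% and 34.2% in WT, which overlapped. CYP2R1-202, from the gene of a vitamin D 25-hydroxylase, was listed at 0 in all TNRC6AB-/- siGL2 libraries and at 37.6%, 21.5% and 13.2% in WT siGL2, at least 6.99-fold lower against the floor. It was at 15.8%, 34.7% and 27.3% in TNRC6AB-/- siTNRC6C, and it was also listed at 0 in 5 of the 12 untransfected libraries, in 4 groups. NDUFS7-205, from a complex I subunit gene, was listed at 0 in TNRC6AB-/- siTNRC6C and at 20.3%, 34.6% and 14.8% in WT siGL2, at least 27.7-fold lower. Such members at 0 in a whole group rested on 12.1 to 52.0 reads (CYP2R1-202) and 53.6 to 163 reads (NDUFS7-205) in the other group.

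Within TNRC6AB-/- cells, siTNRC6C against siGL2 gave 4 members with a higher share and 2 with a lower one, beside 0.0691% of all transcripts (0.0211% higher and 0.048% lower). KIF21A-206 was called higher (log2 0.88, SE 0.13, adjusted p = 0.0374, kept under 4 of 14 alternatives). C1orf112-204 was listed at 0 under siGL2 and at 5.75%, 11.9% and 6.19% under siTNRC6C, at least 56.1-fold higher, and CYP2R1-202 was at least 7.22-fold higher. For C1orf112-204, TNRC6AB-/- siGL2 was the only group with libraries at 0. WT siGL2 libraries held 12.2%, 5.13% and 8.14%, which overlapped TNRC6AB-/- siTNRC6C. Against WT siGL2 its share was called lower in TNRC6AB-/- siGL2, at least 61.8-fold. TMC5-211, named after its values were seen, went from a listed 0 to 16.7%, 25.6% and 24.2%. CALD1-210, from the gene of caldesmon, an actin-binding protein, fell from 11.9%, 12.0% and 14.5% to 5.96%, 7.02% and 5.57% (log2 -0.91, SE 0.13, adjusted p = 0.0327), and was also below the 17.2%, 12.5% and 14.6% of WT siGL2 (log2 -1.07, SE 0.13, adjusted p = 0.00132). DMKN-261 was listed at 0 under siTNRC6C, at least 7.02-fold lower than under siGL2. Shares did not overlap for 631 members that were higher and 372 that were lower, against 9.94% and 6.4% of all transcripts, and in level 19 members were higher and 40 lower, beside 1.58% of all transcripts (0.438% higher and 1.14% lower). These 59 level calls were 76 without TNRC6AB-/- siGL2 replicate 3 and 24 to 37 without any other single library. The TNRC6AB-/- siTNRC6C libraries enter this comparison and the one with WT siGL2, so these comparisons are not independent.

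The genes of the decay pathway itself hold few members. In 23 genes of NMD factors there are 16 members in 12 genes, and in TNRC6AB-/- siTNRC6C against WT siGL2 only NBAS-204 of these was called for share, where 4.29% of all transcripts were. NBAS takes part in transport between the endoplasmic reticulum and the Golgi and in NMD at the endoplasmic reticulum, and NBAS-204 was at 11.7%, 17.1% and 12.8% of its gene beside 6.36%, 4.84% and 5.92% (log2 1.46, SE 0.36, adjusted p = 0.042, kept under 6 of 14 alternatives). These shares rest on 17.3 to 29.6 estimated reads per library beside 6.4 to 8.5. At the level of whole genes, DCP2, the decapping enzyme, was higher (log2 1.07) and EIF4A3, a core protein of the exon junction complex, was lower (log2 -1.03), and the other 21 were not called. Genes whose mRNAs are textbook NMD substrates, such as ATF4, GAS5 and UPP1, numbered 26. In the same comparison 13 of these genes were lower, 3 were higher (CDKN1A, SESN2 and UPP1), and 10 were not called, where 18.9% of all genes were higher and 14.7% lower. ASNS, asparagine synthetase, fell by 2.18 on the log2 scale and SAT1, a polyamine acetyltransferase, by 1.97, while CDKN1A, a cell cycle inhibitor, rose by 1.70. Their 13 member transcripts, in 5 genes, together made up 12.7% to 14.4% of the TPM of those genes in TNRC6AB-/- siTNRC6C and 4.33% to 4.84% in WT siGL2, without overlap, and 7.99% to 8.43% in WT siTNRC6C. This ratio of sums also moves with the levels of the genes, so it does not show a gain within each gene. ASNS was at 18.0 to 18.9 TPM in TNRC6AB-/- siTNRC6C and 46.6 to 68.1 TPM in WT siGL2. It was also below WT siGL2 in WT siTNRC6C (23.3 to 28.5 TPM) and TNRC6AB-/- siGL2 (23.5 to 24.4 TPM). In the untransfected WT libraries ASNS ran from 36.6 to 277 TPM. UPP1 was at 9.82 to 11.5 TPM in TNRC6AB-/- siTNRC6C and 2.73 to 3.61 TPM in WT siGL2. None of the 13 was called for share, where 2.96% of all transcripts were higher, and UPP1-202 and UPP1-206, named after their values were seen, were called higher in level (log2 1.09 and 1.11).

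Splicing regulators that carry poison exons gave 100 members in 43 of 50 genes. In TNRC6AB-/- siTNRC6C, 2 had a higher share than in WT siGL2 and 4 a lower one, where 2.96% of all transcripts were higher and 1.33% lower. The median log2 difference was -0.01, beside 0.14 over all members. The higher ones were SNRNP70-202 and SRSF7-204, an isoform of a serine/arginine-rich splicing factor, at 5.57%, 4.62% and 5.91% beside 2.65%, 3.08% and 3.42% (log2 0.75, SE 0.11, adjusted p = 0.00334). Among the lower ones were HNRNPDL-202, HNRNPH1-211 (log2 -0.96, adjusted p = 0.0472) and CLK3-225 (log2 -1.13, adjusted p = 0.0241). In level 3 of the 100 were higher (SNRNP70-202, TIAL1-210 and RBM5-202) and 12 lower, where 7.31% and 9.5% of all transcripts were. HNRNPA1-205, among the most abundant members, fell in level by 1.12 on the log2 scale (SE 0.12, adjusted p = 9.61e-05). Its share was at 15.7%, 16.8% and 16.7% beside 21.7%, 21.6% and 20.5%, and did not overlap, but at a log2 of -0.34 was not called. In TNRC6A-/- cells SRSF1-207 had a higher share (12.8%, 14.8% and 14.1% beside 6.78%, 8.81% and 6.61%; log2 0.96, SE 0.18, adjusted p = 0.0346) and SRSF1-204 a lower one (0.992%, 1.70% and 1.69% beside 3.54%, 6.12% and 4.19%; log2 -1.64, SE 0.28, adjusted p = 0.022). Also lower there were HNRNPU-213 (log2 -2.32, adjusted p = 0.0156) and LUC7L3-215, listed at 0 in TNRC6A-/- and at 8.13%, 5.85% and 3.44% in WT. Several of these isoforms lie outside the set named by rule and were named after their values were seen.

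Ribosomal protein genes were a group in which level and share parted. They hold 15 members in 8 of 18 genes, and in TNRC6AB-/- siTNRC6C against WT siGL2, 11 of the 15 were lower in level, with a median log2 difference of -1.11, where 9.5% of all transcripts were lower. None was lower in share, where 1.33% of all transcripts were. All 18 genes were lower as a whole, so the isoforms fell with their genes. RPS3-218 had a mean of 535 TPM in WT siGL2 and 266 TPM in TNRC6AB-/- siTNRC6C. On the scale of the level test, reads with TMM factors, which differs from TPM and gave a larger difference, it fell by 1.65 (log2, SE 0.11, adjusted p = 5.81e-06), and RPS3 as a gene fell by 1.496 on the log2 scale. Its share was nevertheless 41.0%, 36.1% and 38.1% beside 35.98%, 38.1% and 39.2%, which overlapped (log2 -0.02, SE 0.04). RPL3-204 and RPS9-209 kept more of their level than their genes and rose in share: RPL3-204 from 0.686%, 0.674% and 0.653% to 1.14%, 1.01% and 1.12% (log2 0.73, SE 0.15, adjusted p = 0.0208) and RPS9-209 from 0.0276%, 0.0323% and 0.0291% to 0.0902%, 0.0797% and 0.0881% (log2 1.53, SE 0.32, adjusted p = 0.0229). The shares of RPS9-209 rest on 31.7 to 35.9 estimated reads per library beside 18.4 to 27.5. RPL13A-214 had a lower share in TNRC6AB-/- siGL2, at 1.44%, 1.10% and 1.32% beside 2.21%, 1.87% and 2.19% (log2 -0.68, SE 0.12, adjusted p = 0.0282). RPL21 and RPS3 have near-identical pseudogene copies, so reads of their isoforms may be divided with those.

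Genes whose splicing the study examined hold 11 members in 7 of 9 genes. The study took most of these genes from earlier work on Argonaute knockouts and chose DEPDC1 and EPB41L2 on the same samples, and all were examined in these cells, so their counts are not independent evidence of direction. In TNRC6AB-/- siTNRC6C, KIF21A-206, PHLDB1-214 and APIP-203 had a higher share and FKBP14-202 a lower one, where 2.96% and 1.33% of all transcripts did. APIP-203, from a gene of methionine salvage, was at 3.46%, 3.16% and 2.18% beside 0.688%, 0.598% and 1.53% (log2 1.57, SE 0.38, adjusted p = 0.0395, kept under 7 of 14 alternatives). For APIP the paper reported no significant splicing change by RNA-seq or PCR, and that PCR was in TNRC6AB-/- cells without siTNRC6C. By RT-PCR it reported splicing changes of FKBP14, KIF21A and PHLDB1 in TNRC6AB-/- cells. By qPCR it reported those of FKBP14 and KIF21A in TNRC6AB-/- siTNRC6C cells as well. The paper examined skipped exons, not the shares of these isoforms. FKBP14-202, from the gene of a prolyl isomerase of the endoplasmic reticulum, was at 8.48%, 7.37% and 14.8% beside 20.8%, 16.4% and 17.8% (log2 -1.42, SE 0.28, adjusted p = 0.0179, kept under 8 of 14 alternatives), and the coding FKBP14-201 gained 24.997 points. PHLDB1-214 was at 4.13%, 3.39% and 5.69%, at least 48.0-fold above WT siGL2, where it was listed at 0.

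Among the targeted genes TNRC6A alone holds a member. TNRC6A-207 stops in an exon 2 absent from coding transcripts, 5038 bases before its last junction. It was at 1.71%, 1.54% and 1.84% of the TPM of TNRC6A in TNRC6AB-/- siTNRC6C and 1.06%, 1.25% and 1.42% in WT siGL2, without overlap. Its reads rose relative to those of the gene by log2 1.23 (SE 0.26, adjusted p = 0.0246, kept under 6 of 14 alternatives), while the reads of the gene were lower by 0.61 on the log2 scale and the level of the isoform did not pass the test (log2 0.51, adjusted p = 0.193). In TPM, the scale of the shares, TNRC6A went the other way, at 30.4, 39.1 and 37.5 TPM in TNRC6AB-/- siTNRC6C and 18.7, 20.8 and 27.3 TPM in WT siGL2, so the direction for the gene depends on the measure. In TNRC6A-/- cells it was at 2.17%, 1.65% and 1.72% beside 1.32%, 1.44% and 1.002% in WT, a difference that was not called. The 3 members in colon epithelial marker genes, EPCAM-204 and CDH1-209 among them, were not called for share in TNRC6AB-/- siTNRC6C.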

How the data were processed

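RNA-seq was made from total RNA of 24 HCT116 libraries, 3 for each of 8 groups, with a strand-specific Illumina kit per the labels. The labels name Trizol and the paper's methods an RNeasy kit for extraction. The submitters' processing notes name Salmon 0.11.0, STAR 2.5.3a, DESeq2 and hg38. The authors deposited, for each library, estimated counts (reads assigned by Salmon) and TPM per transcript; the transcript set of the Salmon index is not given in the sources used here. Of the transcripts, 199368 matched GENCODE 29 by identifier and 244 did not. Biotypes, stops, exons and sequences were taken from GENCODE 29 on GRCh38.

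Estimated counts were rounded and tested with edgeR 4.0.16 (quasi-likelihood test, R 4.3.3, TMM factors), in 1 fit of the 12 untransfected and 1 of the 12 transfected libraries, each with 8 residual degrees of freedom. For shares, the log of the gene's total count was the offset, in genes with at least 2 transcripts passing and 10 reads. No p-value is given for sums over members. Share values printed per library are member TPM over gene TPM. Where a group was at 0, folds use a floor of 3 reads per library; intervals and floors cover counting error only. Scripts were tested on simulated data, in which most changed members were not called. For shares in TNRC6AB-/- siTNRC6C against WT siGL2, 3 of 100 were called at a log2 change of 1 and 33 of 100 at 3. limma 3.58.1 (log2 of TPM with a pseudocount of 0.1) and DESeq2 1.42.0 were alternatives. Python 3.11.15 with pandas 2.3.3, NumPy 2.4.6 and Matplotlib 3.10.9 did the rest.

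The members and the gene lists were chosen with earlier results of these data known. Members named in the text were the 10 of highest mean TPM, the called members with the largest change in points in genes of at least 5 TPM in each comparison, and called or abundant members of the gene lists; others are marked as named after their values were seen. Replicate numbers did not pair libraries. Not every called member of the lists is named here.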

Additional observations from a re-analysis of the deposited data

How the results depend on the processing

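Counts of called members depended most on the processing and are approximate. Of the counts for shares within the gene, 32 of 69 alternatives, those that leave out 1 library aside, came within 1.5 times of the count given in the report, and of those for levels 39 of 69. Sums over members were compared by direction alone: the difference in the share of library reads kept it in 65 of 71 such alternatives and that in the summed share within the gene in 47 of 55. Comparisons are given in the order TNRC6A-/-, TNRC6B-/- and TNRC6AB-/- against WT, then WT siTNRC6C, TNRC6AB-/- siGL2 and TNRC6AB-/- siTNRC6C against WT siGL2, then siTNRC6C against siGL2 in TNRC6AB-/- cells, called here the last comparison. Where a comparison is not named for a setting, its count came within 1.5 times of the count given or its difference kept its direction. For the differences between settings the cause was not tested, except that the fits of 6 libraries and those without a library hold fewer samples, and the count among members of support level 1 or 2 is a count over fewer members.

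DESeq2 called more members in every comparison of shares, namely 263, 24, 64, 44, 205, 613 and 73 where edgeR called 59, 1, 2, 2, 43, 263 and 6. For levels DESeq2 called 270, 31, 310, 69 and 499 in the first 5 comparisons and 202 in the last, where edgeR called 49, 0, 69, 8, 320 and 59. A single edgeR fit of all 24 libraries called 202, 2, 19, 0, 21, 128 and 3 shares, and for levels 225, 9, 297, 0 and 153 in the first 5 comparisons and 8 in the last. Fits of the 6 compared libraries alone called 0 shares in TNRC6B-/-, TNRC6AB-/-, WT siTNRC6C and the last comparison, 11 in TNRC6AB-/- siGL2 and 77 in TNRC6AB-/- siTNRC6C, and 18, 0, 112 and 27 levels in TNRC6AB-/-, WT siTNRC6C, TNRC6AB-/- siGL2 and the last comparison. limma called 2, 5 and 1 shares in TNRC6B-/-, TNRC6AB-/- and WT siTNRC6C. With RLE factors 5 levels were called in WT siTNRC6C. With no filter on reads, 0 shares were called in TNRC6B-/-, and 4 levels in WT siTNRC6C and 36 in the last comparison.

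Replicate numbers are common to the groups, but pairing by number was not borne out: the highest correlation of deviations between libraries of the same number was 0.083. With a replicate block, share calls were 1 in TNRC6AB-/-, 1 in WT siTNRC6C and 0 in the last comparison, and level calls were 1 in TNRC6B-/- and 3 in WT siTNRC6C; the other counts came within 1.5 times of those without the block.

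Among members of transcript support level 1 or 2, share calls were 26 in TNRC6A-/-, 0 in TNRC6B-/-, 1 in TNRC6AB-/-, 26 in TNRC6AB-/- siGL2, 146 in TNRC6AB-/- siTNRC6C and 3 in the last comparison, and level calls were 24, 34, 190, 475 and 30 in the same comparisons without TNRC6B-/-. In these members the difference in summed share was -0.352 points in TNRC6AB-/-, -0.0827 in TNRC6AB-/- siTNRC6C and -0.163 in the last comparison, where over all members it was 0.0628, 0.272 and 0.107. The difference of TNRC6AB-/- from WT in summed share was also below 0 with estimated reads in place of TPM (-0.473 points), as a median over members (-0.367) and with no filter on reads (-0.0217). With estimated reads, TNRC6AB-/- siGL2 differed from WT siGL2 by -0.00816 points (0.165 with TPM), and as a median over members TNRC6A-/- differed from WT by -0.217 (0.749 as a ratio of sums).

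For the share of library reads, the difference of WT siTNRC6C from WT siGL2 was -0.0329 points, and 0.0357 as a share of TPM. The TNRC6AB-/- siGL2 difference was 0.0420 points, and -0.00754 when reads of nuclear protein-coding genes were the denominator. The mean difference of TNRC6AB-/- from WT cells over the 3 transfection states was -0.00645 points, 0.0541 as a share of TPM and 0.00778 among members of support level 1 or 2.

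Some alternatives were chosen after seeing the data. Without the 10 members of highest mean TPM, the mean difference over the 3 states was 0.0592 points. Without the 4 libraries high in retained introns, the WT siTNRC6C difference in read share was 0.0104 points, share calls were 3 in TNRC6B-/-, 7 in TNRC6AB-/-, 524 in TNRC6AB-/- siTNRC6C and 25 in the last comparison, and level calls were 6 in TNRC6B-/-, 132 in TNRC6AB-/-, 32 in WT siTNRC6C and 195 in the last comparison.

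Leaving out each library in turn gave 32 to 49 share calls in TNRC6A-/-, 0 to 2 in TNRC6B-/-, 0 to 4 in TNRC6AB-/-, 2 to 5 in WT siTNRC6C, 25 to 89 in TNRC6AB-/- siGL2 and 93 to 483 in TNRC6AB-/- siTNRC6C. Level calls ran from 20 to 36, 0 to 3, 18 to 70, 3 to 20 and 205 to 407 in the first 5 comparisons and from 24 to 76 in the last. The differences in read share ran from -0.0680 to 0.0104 points in WT siTNRC6C, from -0.00128 to 0.0687 in the last comparison, and from -0.0293 to 0.0149 over the 3 states. The differences in summed share ran from -0.259 to 0.253 points in TNRC6B-/- and from -0.127 to 0.385 in TNRC6AB-/-; in both, the highest value came without WT replicate 2 and the lowest without WT replicate 3.

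Depth limits what single members can show. The median member had 0.581 TPM, and a member listed at 0 is not thereby shown to be absent. Most members share nearly all of their sequence with other isoforms, so an exchange between isoforms of a gene rests on the assignment of shared reads.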
